A study of Mus musculus with 22 samples.

Results

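Mice that lack Clock were compared across the day, with different pools of mice at each time. Kidneys taken late in the subjective day came from hours 8 and 12 of the cycle. They were set against kidneys taken late in the subjective night, at hours 20 and 0. The hours are given as zeitgeber time (ZT), where ZT0 was lights on and ZT12 lights off in the earlier light cycle. The arrays were chosen by the genotype and time in their titles and not by any measured value, which gave 8 of the 22 arrays of the series. The late day group of Clock knockout (KO) mice held 2 pools at ZT8 and 2 at ZT12, and the late night group held 2 pools at ZT20 and 2 at ZT0. The wild-type (WT) arrays of the same hours, used below as a second genotype, numbered 7, with 1 pool at ZT8 and 2 pools at each of ZT12, ZT20 and ZT0.

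The series measured kidney RNA of KO and WT mice on Affymetrix whole-transcript arrays every 4 h at 6 times, with 11 arrays per genotype. The KO mice were clock-deficient animals from a colony bred from heterozygous parents, and the labels do not say which part of the gene was removed. Mice of both genotypes lived for 2 weeks in 12 h of light and 12 h of dark and then spent 30 h in constant darkness before the kidneys were taken, so no light cue marked day or night in those last hours. Each array read RNA combined from 2 or 3 mice, and the labels name the whole kidney and, as tissue, the left kidney. The labels give neither age nor sex. Nothing in the labels ties a pool to a litter or a day, so the p-values below speak only for the spread among the pools at hand.

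In the textbook account of the mammalian clock, Clock and its partner Arntl bind E-box sequences and drive the Period and Cryptochrome genes, whose proteins return to block them. A second loop runs through the nuclear receptors Nr1d1 and Nr1d2, which repress Arntl, and Rora, which activates it, both at RORE sequences. The PAR bZIP factors Dbp, Tef and Hlf and the repressor Nfil3 act on D-box sequences in output genes. In the mouse brain, the related factor Npas2 is known to stand in for Clock. In the kidney, clock outputs include transporters and metabolic enzymes of the tubule, and many genes of the male mouse proximal tubule also respond to androgens and growth hormone.

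The promoters of 4 clock genes that changed between late day and late night in KO are shown, and together they carry the 3 elements just named. They were chosen by size, as the 3 largest increases and the 1 decrease among changed clock genes with a promoter entry. Per2 also changed but has no promoter entry. Each window runs from 250 bases before to 50 after the annotated start (RefSeq, build GRCm38.p6) and is written in the direction of transcription, with matched letters in capitals. The motifs, searched on both strands, were CACGTG for the E-box, TTATGTAA or TTACGTAA for the D-box and AGGTCA for the core of the RORE. For Tef and Arntl, which have 2 annotated starts each, the window with the most matches is given. Nr1d2 lies on the minus strand at chr14:18239057-18239356 with a RORE core at position -77 from the start. Per3 lies on the minus strand at chr4:151044616-151044915 with D-boxes at -205 and -158. Tef lies on the plus strand at chr15:81802423-81802722 with an E-box at -127. Arntl lies on the plus strand at chr7:113207261-113207560 with a RORE core at 32, and positions count the first letter of a match from the start, which is 1.
Nr1d2: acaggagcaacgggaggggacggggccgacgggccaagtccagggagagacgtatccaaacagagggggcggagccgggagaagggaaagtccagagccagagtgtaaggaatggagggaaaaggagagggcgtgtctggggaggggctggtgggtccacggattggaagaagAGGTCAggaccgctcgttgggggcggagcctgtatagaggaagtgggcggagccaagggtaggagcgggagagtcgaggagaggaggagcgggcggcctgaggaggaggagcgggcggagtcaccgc
Per3: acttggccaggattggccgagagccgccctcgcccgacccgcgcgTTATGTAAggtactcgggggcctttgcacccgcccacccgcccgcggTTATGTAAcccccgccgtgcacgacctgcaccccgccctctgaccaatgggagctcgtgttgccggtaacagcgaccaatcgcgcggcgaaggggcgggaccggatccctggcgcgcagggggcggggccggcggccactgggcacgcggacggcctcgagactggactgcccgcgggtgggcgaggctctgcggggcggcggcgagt
Tef: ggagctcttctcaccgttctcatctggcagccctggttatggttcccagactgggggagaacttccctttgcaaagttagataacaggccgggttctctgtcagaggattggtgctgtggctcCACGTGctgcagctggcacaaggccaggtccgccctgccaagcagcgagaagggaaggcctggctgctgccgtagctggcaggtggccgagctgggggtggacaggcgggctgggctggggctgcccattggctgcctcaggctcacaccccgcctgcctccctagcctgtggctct
Arntl: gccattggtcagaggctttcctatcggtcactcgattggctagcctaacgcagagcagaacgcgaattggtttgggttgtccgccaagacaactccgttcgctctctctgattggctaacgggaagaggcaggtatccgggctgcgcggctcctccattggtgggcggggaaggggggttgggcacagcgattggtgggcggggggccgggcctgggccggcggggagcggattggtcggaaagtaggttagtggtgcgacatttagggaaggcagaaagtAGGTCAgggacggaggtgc

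In KO kidneys, 214 of 13967 genes (1.53%) differed between late day and late night at an adjusted p under 0.05, and 1600 had an unadjusted p under 0.05. Of the 214, 163 were higher in the late day (1.17% of all genes) and 51 were lower (0.365%), and 99 of the 214 differed by 0.5 log2 or more. The median difference was 0.50 log2 over the higher genes and -0.43 over the lower genes, against -0.0041 over all genes. In 154 of the 214, the 4 late day arrays and the 4 late night arrays did not overlap, which held for 1012 of all genes (7.25%). The same arrays chose the 214, so a high share among them was built in. Whole kidneys were measured, so for each of these genes fewer cells of a type and less RNA per cell cannot be told apart.

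The count leaned most on the 2 ZT20 pools, though not on them alone. It was 3 with both ZT20 pools left out, 40 without ZT8, 47 without ZT12 and 311 without ZT0. With ZT20 alone as the night, 298 genes were called (2.13%), 220 higher and 78 lower in the late day. With ZT0 alone as the night, 3 genes were called (0.0215%), and 873 had an unadjusted p under 0.05. Between the night times themselves, 4 genes differed (0.0286%), all lower at ZT20 than at ZT0, and 791 had an unadjusted p under 0.05. The sizes with each night time, which share the late day arrays and are both part of the comparison that chose the genes, are given as a description. Over the 163 higher genes the median difference was 0.61 log2 with ZT20 alone and 0.36 with ZT0 alone, and 140 of them were larger with ZT20. Over the 51 lower genes the medians were -0.54 with ZT20 alone and -0.35 with ZT0 alone. All 214 called genes kept their sign with ZT0 alone, and 183 of them had an unadjusted p under 0.05 there (limma). Both ZT20 pools were the lowest 2 of the 8 arrays in 111 of the 163 higher genes (68.1%) and the highest 2 in 24 of the 51 lower genes (47.1%), against 12.7% of all genes in the direction of their own difference. Both ZT0 pools held those places in 9 of the 163 (5.52%) and 1 of the 51 (1.96%).

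Single arrays moved the count as well. It fell to 58 without ZT20 pool 2, 39 without ZT0 pool 1, 36 without ZT8 pool 2, 30 without ZT12 pool 2 and 96 without ZT8 pool 1. When only these 8 arrays entered the fit and the gap between the times within each window counted as spread, 9 genes were called. Among them were Acmsd (-0.88), Nat8f5 (2.94) and Herpud1 (0.58).

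**Figure D1:**
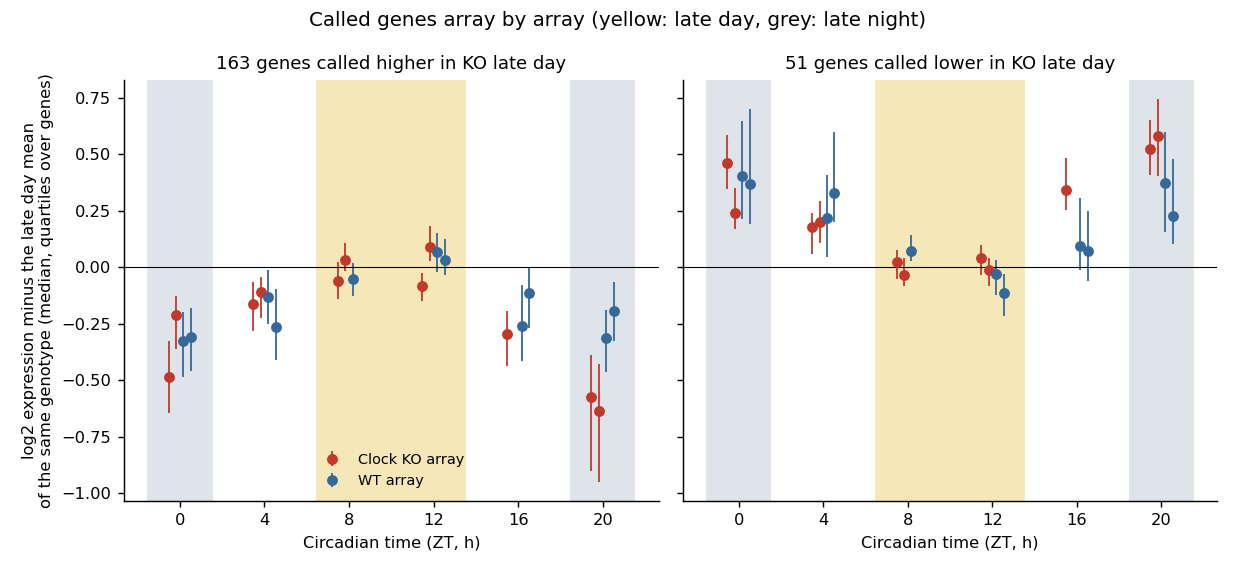
Median and quartiles, over the 163 genes called higher and the 51 called lower in KO late day, of log2 expression minus the late day mean of the same genotype, for each KO array (red) and WT array (blue) by circadian time in hours, with late day shaded yellow and late night grey. For the higher genes the ZT20 KO pools sit at -0.57 and -0.64 and the ZT0 KO pools at -0.49 and -0.21, and the lower genes run the other way.

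The 8 arrays correlated at 0.986 to 0.996 over the genes tested, and the array medians of the whole series lay between 5.88 and 6.01 log2. Proximal tubule markers, the main cells of kidney cortex, averaged 12.18 to 12.25 log2 on KO late day arrays and 12.10 to 12.18 on KO late night arrays. Of 12 such markers, 2 were called higher in the late day, the organic anion transporter Slc22a6 (0.38 ± 0.08, adjusted p = 0.0289) and the dicarboxylate transporter Slc13a3 (0.33 ± 0.08, adjusted p = 0.0499). The Slc22a6 difference was 0.65 with ZT20 alone and 0.10 with ZT0 alone (adjusted p = 0.953), and ZT0 pool 2, at 11.46, lay inside its late day range. Of 9 markers of neighbouring tissue such as adrenal gland, fat and muscle, none was called (limma, and 0 at an unadjusted p under 0.05), with list means of 6.86 and 6.27 at ZT8 and 5.66 and 5.70 at ZT12, against 5.86 to 6.13 in the late night. ZT8 pool 1 stood apart, with the fat markers Adipoq at 7.75 and Cidec at 7.51, and the part of this in the results was not tested. Clock itself read 8.98 and 8.73 at ZT8 and 8.90 and 8.89 at ZT12, against 8.96 and 9.11 at ZT20 and 9.02 and 9.0 at ZT0. That difference was -0.15 ± 0.07 (adjusted p = 0.402), and because the deleted part is not named, the probe set does not check the genotype.

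Of 10 clock repressors measured in KO, 5 were higher in the late day, none was called lower and 5 did not pass, with a list median of 0.51 log2. Over all genes, 1.17% were called higher and 0.365% lower in KO, and these shares stand beside every KO list count here. With ZT20 alone that median was 0.54, and with ZT0 alone it was 0.51. In WT, where 1.57% of all genes were called, 9 of the 10 were higher and 1, Cry1, was lower, with a median of 1.09. The difference between genotypes itself was called for none of the 10 (limma).

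Per2, which encodes a Period repressor, read 7.44 and 7.62 at ZT8 and 7.60 and 8.23 at ZT12 in KO, against 7.05 and 7.25 at ZT20 and 6.60 and 6.76 at ZT0. Every late day array was above every late night array, and ZT0 was lower than ZT20 on both pools. The difference was 0.80 ± 0.14 (SE, adjusted p = 0.00923), near the 0.76 ± 0.15 of WT. It was 1.04 with ZT0 alone and 0.57 with ZT20 alone, so here ZT20 was the smaller part.

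Per3 read 6.50 and 7.05 at ZT8 and 6.30 and 6.95 at ZT12, against 5.79 and 5.86 at ZT20 and 5.88 and 5.99 at ZT0. The groups did not overlap, and the night values lay close together while the day values spread more widely (SD 0.36 in the late day and 0.08 in the late night, n = 4 each). The difference was 0.82 ± 0.16 (adjusted p = 0.0213). Per1, the third Period gene, read 7.56 and 8.10 at ZT8 and 7.50 and 7.94 at ZT12, against 7.40 and 7.39 at ZT20 and 7.14 and 7.11 at ZT0. Its groups did not overlap, though the lowest late day and the highest late night arrays lay close, and the difference of 0.52 ± 0.12 (adjusted p = 0.0387) lost its call in 10 of 22 fits made without 1 array each.

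Nr1d2, a repressor of the second loop, read 8.71 and 9.40 at ZT8 and 8.34 and 9.14 at ZT12, against 7.75 and 7.56 at ZT20 and 8.34 and 8.37 at ZT0. ZT0 overlapped the lowest late day array, and ZT20 lay below all others. The difference was 0.90 ± 0.17 (adjusted p = 0.0177), with 1.25 for ZT20 alone and 0.54 for ZT0 alone. Its paralog Nr1d1 read 8.08 and 8.94 at ZT8 and 7.36 and 8.27 at ZT12, against 7.58 and 7.40 at ZT20 and 8.71 and 8.49 at ZT0. The late day mean lay between both night times, so the difference was 0.12 ± 0.21 (adjusted p = 0.91), made of 0.67 for ZT20 alone and -0.44 for ZT0 alone. ZT20 minus ZT0 was -1.11 ± 0.30 and did not pass (adjusted p = 0.432). In WT the same difference was 1.85 ± 0.23 (adjusted p = 0.000637), and the gap between genotypes of -1.73 ± 0.31 missed the threshold (adjusted p = 0.0807).

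Bhlhe40, an E-box repressor, read 8.87 and 9.22 at ZT8 and 8.84 and 9.27 at ZT12, against 8.59 and 8.64 at ZT20 and 8.71 and 8.64 at ZT0, a difference of 0.41 ± 0.09 (adjusted p = 0.0418) that lost its call in 12 of the 22 fits. The repressors that did not pass were Ciart (1.24 ± 0.40, adjusted p = 0.164), Bhlhe41 (0.50 ± 0.21), Cry2 (0.27 ± 0.10), Nr1d1 and Cry1 (0.02 ± 0.13). A second Ciart probe set differed by 0.64.

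Among the factors that act on D-boxes, 1 of 4 passed. Tef read 9.12 and 9.45 at ZT8 and 9.02 and 9.57 at ZT12, against 8.41 and 8.43 at ZT20 and 8.66 and 8.68 at ZT0. The groups did not overlap, and the difference was 0.74 ± 0.14 (adjusted p = 0.0154), against 0.99 ± 0.15 in WT. Dbp, the most strongly rhythmic of these factors in most tissues, read 8.04 and 9.69 at ZT8 and 7.51 and 9.39 at ZT12, against 7.20 and 7.40 at ZT20 and 7.38 and 7.45 at ZT0. Its night values were tight (SD 0.11) and its day values were not (SD 1.05, n = 4 each), and the difference of 1.30 ± 0.37 did not pass (adjusted p = 0.0979). In WT it was 3.41 ± 0.41 (adjusted p = 0.000433). The Dbp gap between genotypes of -2.10 ± 0.55 missed the threshold (limma, adjusted p = 0.448), and no such gap was called among the 4 factors. Hlf (0.39 ± 0.10, adjusted p = 0.077) and Nfil3 (-0.31 ± 0.17, adjusted p = 0.534) did not pass in KO either.

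The late day spread of these genes had a pattern. The 2 late day arrays labelled pool 2 were the highest 2 of the 8 in 11 of the 14 repressors and D-box factors (78.6%), against 8.36% of all genes. The 11 were Bhlhe40, Bhlhe41, Ciart, Cry2, Dbp, Hlf, Nr1d2, Per1, Per2, Per3 and Tef. The list mean of the repressors was 7.85 on ZT8 pool 2 and 7.86 on ZT12 pool 2, with 7.30 and 7.17 on the pool 1 arrays and 6.95 to 7.03 on the 4 late night arrays. This count was made after the values had been seen, the labels do not say what pools of one number share, and its part in the results was not tested.

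**Figure D2:**
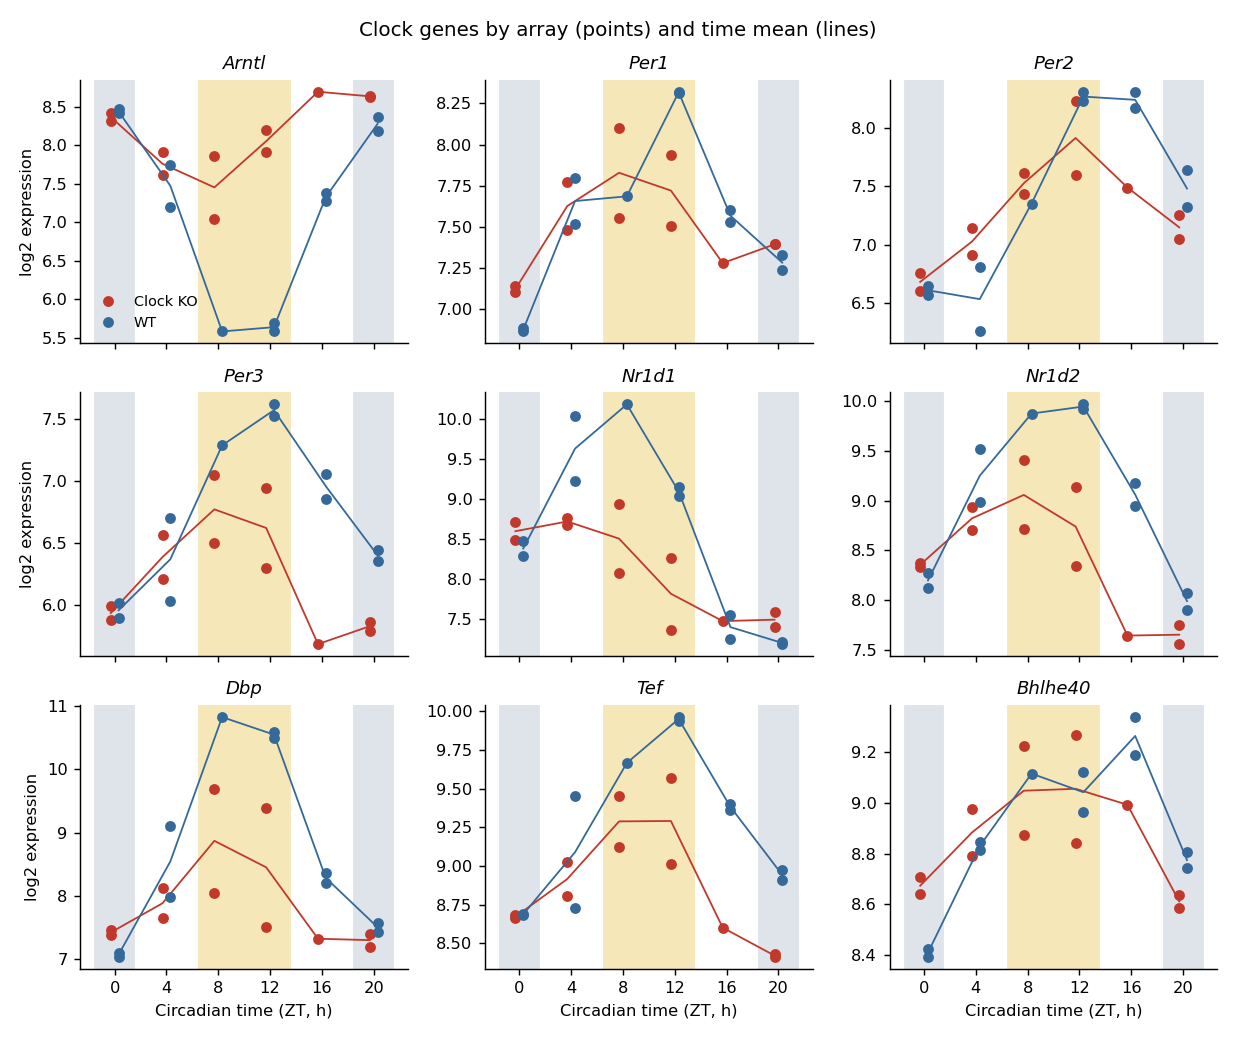
Log2 expression of 9 clock genes on each KO array (red) and WT array (blue) by circadian time in hours, with lines through the time means and late day in yellow and late night in grey. Arntl falls to 5.58 in WT late day and no lower than 7.04 in KO, and the late day KO points of Per1, Per3, Dbp and Tef split into a higher and a lower pool at each time.

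Arntl, the partner of Clock, moved the other way. It read 7.86 and 7.04 at ZT8 and 8.20 and 7.91 at ZT12 in KO, against 8.63 and 8.64 at ZT20 and 8.41 and 8.31 at ZT0. The groups did not overlap, and Arntl was lower in the late day by -0.75 ± 0.15 (adjusted p = 0.0233). In WT it read 5.58 at ZT8 and 5.69 and 5.58 at ZT12, against 8.36 and 8.19 at ZT20 and 8.41 and 8.46 at ZT0, a difference of -2.75 ± 0.17 (adjusted p = 8.63e-07). The late night levels of the genotypes overlapped, and the late day levels did not. The difference between the genotypes' differences was 2.00 ± 0.22 (adjusted p = 0.00203). The other 3 activators measured, Rora (0.31 ± 0.10, adjusted p = 0.149), Arntl2 (0.03 ± 0.11) and Clock, did not pass.

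Of 12 clock output genes, 3 rose, 2 fell and 7 did not pass, with a median of 0.43 log2 in KO and 0.28 in WT. Of all genes, 1.17% rose and 0.365% fell in KO. Tspan4, a tetraspanin, differed by 0.53 ± 0.10 (adjusted p = 0.0119) and Alas1, the first enzyme of haem synthesis, by 0.49 ± 0.09 (adjusted p = 0.0105). For both, ZT0 alone gave as large a difference as ZT20 alone, at 0.57 and 0.50 for Tspan4 and 0.52 and 0.46 for Alas1. Dtx4, an E3 ubiquitin ligase of the Notch pathway, was lower by -0.60 ± 0.10 (adjusted p = 0.00991), with the groups apart at 7.79, 7.80, 8.21 and 7.76 in the late day and 8.61, 8.44, 8.65 and 8.26 in the late night. The RNA-binding proteins Rbm3 (0.38 ± 0.09, adjusted p = 0.0605) and Cirbp (0.16 ± 0.10), both known to rise in the cold, did not pass in KO (limma, 1 of 2 at an unadjusted p under 0.05). Both passed in WT (0.59 ± 0.11 and 0.72 ± 0.11), but the difference between genotypes was called for neither.

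Of 11 glucocorticoid-responsive genes, 2 were higher in the late day (1.17% over all genes) and 9 did not pass, with a median of 0.17 log2. Fkbp5, a co-chaperone of the glucocorticoid receptor, read 8.92 and 8.83 at ZT8 and 9.19 and 9.52 at ZT12, against 8.53 and 8.51 at ZT20 and 8.17 and 8.62 at ZT0. The groups did not overlap, and the difference was 0.66 ± 0.11 (adjusted p = 0.00741). Tsc22d3, a leucine zipper protein induced by the hormone, read 8.13 and 8.20 at ZT8 and 8.30 and 8.46 at ZT12, against 7.89 and 7.62 at ZT20 and 7.68 and 7.45 at ZT0. The groups again stood apart, with a difference of 0.61 ± 0.10 (adjusted p = 0.00741). Both were at least as large with ZT0 alone (0.72 and 0.71) as with ZT20 alone (0.60 and 0.52). Zbtb16, a zinc finger factor, differed by 0.81 ± 0.21 (adjusted p = 0.0653).

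Of the 30 gene lists, the largest median difference was that of genes that respond to androgens or differ between male and female kidney. Of 17 listed genes, all measured, 11 were higher in the KO late day (1.17% over all genes) and 6 did not pass, with a median of 1.73 log2. That median was 2.69 with ZT20 alone and 0.66 with ZT0 alone. In WT none of the 17 was called (limma, 3 at an unadjusted p under 0.05), with a median of 0.26, but the difference between genotypes itself passed for 1 of them, Nat8f5.

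Nat8f5, of the N-acetyltransferase 8 family, read 7.31 and 7.91 at ZT8 and 7.96 and 9.19 at ZT12 in KO, against 4.49 and 4.86 at ZT20 and 5.49 and 5.76 at ZT0. All 4 late day arrays lay well above all 4 late night arrays, and the difference was 2.94 ± 0.27 (adjusted p = 0.000243). It was called with ZT20 alone (3.42) and with ZT0 alone (2.47). In WT it read 8.43 at ZT8 and 10.26 and 9.98 at ZT12, against 8.93 and 9.48 at ZT20 and 8.38 and 8.03 at ZT0, a difference of 0.57 ± 0.30, so the genotypes' differences were 2.37 ± 0.40 apart (adjusted p = 0.0491).

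Slco1a1, an organic anion transporter, read 9.55 and 9.79 at ZT8 and 9.40 and 10.47 at ZT12, against 6.30 and 5.18 at ZT20 and 8.15 and 9.60 at ZT0. The ZT20 pools lay lowest and ZT0 pool 1 was also below every late day array, while ZT0 pool 2 lay inside the late day range. The difference of 2.50 ± 0.37 (adjusted p = 0.00455) was 4.07 with ZT20 alone and 0.93 with ZT0 alone, and ZT20 minus ZT0 was -3.14 (adjusted p = 0.0678). Azgp1, a secreted lipid-mobilising glycoprotein, had the same layout, with 9.01, 9.67, 9.06 and 9.71 in the late day, against 5.89 and 5.48 at ZT20 and 6.98 and 9.32 at ZT0. Its difference was 2.44 ± 0.46 (adjusted p = 0.0172). Cyp4a12a, the main male enzyme that makes 20-HETE in the mouse kidney, read 7.76, 8.88, 7.79 and 9.56 in the late day, against 5.02 and 4.79 at ZT20 and 6.07 and 7.93 at ZT0 (2.55 ± 0.48, adjusted p = 0.0164).

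Cyp2j13, a cytochrome P450, read 10.90 and 11.07 at ZT8 and 10.92 and 11.27 at ZT12, against 8.60 and 8.43 at ZT20 and 9.81 and 11.07 at ZT0. The late day values lay close together (SD 0.17), and the late night values were spread (SD 1.23, n = 4 each), with ZT0 pool 2 among the late day arrays. The difference was 1.57 ± 0.21 (adjusted p = 0.00288), and ZT20 was lower than ZT0 by -1.93 (adjusted p = 0.0363). The other members called were Pzp (1.97), Cyp7b1 (1.86), Ugt2b37 (1.80), Cyp4a12b (1.77), Ces1g (1.73) and Cyp4b1 (0.89). Kap, an abundant androgen-induced kidney protein, differed by 0.04 ± 0.05, and Cyp4a14, which is higher in female kidney, by -0.63 ± 0.33. The Cyp4a12, Ugt2b and Nat8 genes have close paralogs whose probes may read more than 1 gene.

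Other genes moved on the same arrays. The list mean of the 17 androgen-responsive and sex-dimorphic genes was 9.97 to 10.61 on KO late day arrays, against 8.42 and 8.16 at ZT20 and 9.12 on ZT0 pool 1, while ZT0 pool 2 lay inside the late day range. On all WT arrays it was 9.95 to 10.60. Proliferation genes ran the opposite way, at 6.06 to 6.09 on the late day arrays, against 6.21 and 7.22 at ZT20 and 6.93 and 6.07 at ZT0. Stromal and matrix genes followed them, at 8.49 to 8.71 in the late day, against 8.93 and 9.30 at ZT20 and 9.08 and 8.40 at ZT0. In WT the proliferation list read 6.12 to 6.20 in the late day, 6.72 and 6.21 at ZT20 and 6.45 and 6.13 at ZT0. The WT stromal list read 8.38 to 8.72 in the late day, 8.99 and 8.49 at ZT20 and 8.98 and 8.71 at ZT0. None of 13 proliferation genes (median -0.52, 8 at an unadjusted p under 0.05) or 10 stromal genes (median -0.27, 5 at an unadjusted p under 0.05) was called by limma in KO. Over all 13967 genes, 1600 had an unadjusted p under 0.05. The Y-linked genes Eif2s3y, Kdm5d and Uty, looked up after these values were seen, were expressed on every array of the series. Uty read 8.43 to 8.62 in the KO late day and 8.46 to 8.59 in the KO late night. Eif2s3y read 9.04 to 9.12 and 8.73 to 9.06, and Kdm5d 7.3 to 7.4 and 7.3 to 7.5, in the same order. Their expression in a pool does not show that every mouse of the pool was male. The part of these genes in the result was not tested.

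Several of the other large increases also leaned on ZT20. Mogat1, a monoacylglycerol acyltransferase, read 9.89, 9.90, 10.01 and 9.96 in the late day, against 8.46 and 8.37 at ZT20 and 9.40 and 9.72 at ZT0. The late day pools lay close together (SD 0.05), and the night times stood apart from them and from each other. The difference was 0.95 ± 0.12 (adjusted p = 0.00181), and ZT20 was lower than ZT0 by -1.15 (adjusted p = 0.0306). Olfm4, an olfactomedin, differed by 0.79 ± 0.08 (adjusted p = 0.000784) and Nat8f2 by 0.76 ± 0.09 (adjusted p = 0.00181), and they complete, with Cyp2j13 and Mogat1, the 4 genes called between ZT20 and ZT0.

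Tc2n read 6.0 and 6.91 at ZT8 and 6.32 and 6.89 at ZT12, against 5.16 and 5.02 at ZT20 and 5.06 and 5.73 at ZT0. Its difference was 1.29 ± 0.22 (adjusted p = 0.00991) and 1.21 ± 0.25 in WT. In KO it was 1.44 with ZT20 alone (adjusted p = 0.0125) and 1.13 with ZT0 alone, which did not pass (adjusted p = 0.285). Nat8, which acetylates cysteine conjugates, differed by 1.05 ± 0.13, the annexin Anxa13 by 0.96 ± 0.19, the galactosyltransferase Ugt8a by 0.81 ± 0.12, the apolipoprotein Apob by 0.81 ± 0.13, the complement component C8a by 0.79 ± 0.11 and Etnppl, which degrades phosphoethanolamine, by 0.78 ± 0.11. These 6 were named by a rule that takes only genes whose 4 late day and 4 late night arrays do not overlap. The differences with ZT20 alone and with ZT0 alone were 1.47 and 0.64 for Nat8, 1.37 and 0.55 for Anxa13, 1.14 and 0.48 for Ugt8a, 1.26 and 0.35 for Apob, 1.10 and 0.49 for C8a, and 0.95 and 0.61 for Etnppl. All 6 were called with ZT20 alone and none of them with ZT0 alone (adjusted p from 0.271 to 0.797). Slco1a6, a kidney organic anion transporter, differed by 0.66 ± 0.09 (adjusted p = 0.00293), as 1 of 10 genes of organic ion transport and efflux.

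**Figure D3:**
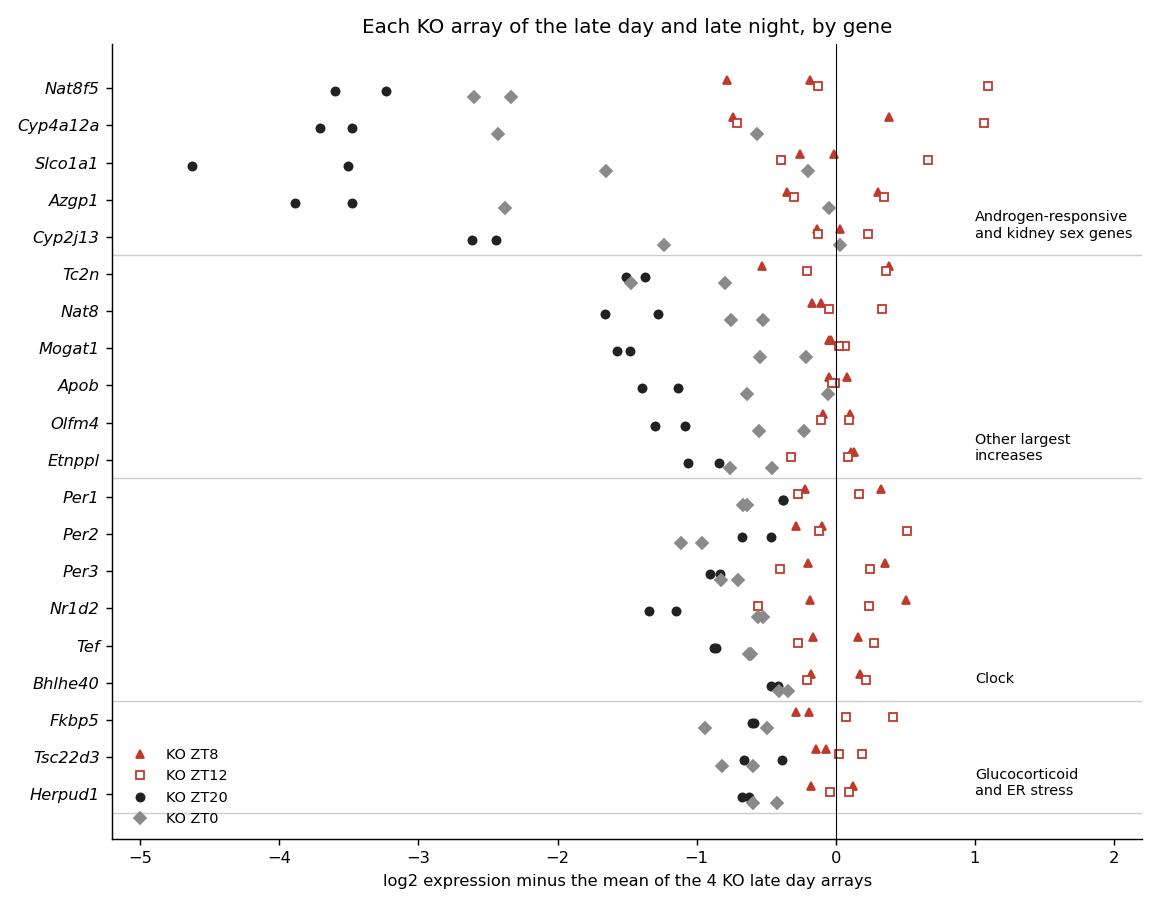
Log2 expression of 20 genes on each of the 8 KO arrays, minus the mean of the gene's 4 late day arrays, with ZT8 as red triangles, ZT12 as open squares, ZT20 as black circles and ZT0 as grey diamonds. In Slco1a1, Azgp1 and Cyp2j13 1 ZT0 pool lies among the late day arrays and the ZT20 pools lie lowest, while in Per1 and Per2 both ZT0 pools lie below both ZT20 pools, and in Fkbp5 and Tsc22d3 the pools of the night times interleave.

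Among the 51 genes called lower in the late day, the largest difference was that of Acmsd, a decarboxylase that draws tryptophan breakdown away from NAD synthesis. It read 9.72 and 9.73 at ZT8 and 10.02 and 9.65 at ZT12, against 10.48 and 10.95 at ZT20 and 10.72 and 10.50 at ZT0. The groups did not overlap and the night times were alike, and the difference was -0.88 ± 0.10 (adjusted p = 0.00163). Acmsd and Nat8f5 were the genes called with ZT20 alone (-0.93 for Acmsd) as well as with ZT0 alone (-0.83). Both were named by rules that take only genes without overlap, or only genes called with both night times. The lack of overlap and these calls were therefore built in. In WT the Acmsd difference was -0.73 ± 0.12 (adjusted p = 0.00422). The third gene called with ZT0 alone has no established name and did not pass with ZT20 alone.

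Ppard, a nuclear receptor for fatty acids, read 7.23 and 7.17 at ZT8 and 7.42 and 7.52 at ZT12, against 8.10 and 8.35 at ZT20 and 7.81 and 7.86 at ZT0. It was lower on every late day array, by -0.69 ± 0.10 (adjusted p = 0.00337), and by -1.13 ± 0.11 in WT. Slc16a1, a monocarboxylate transporter, was lower by -0.63 ± 0.12 (adjusted p = 0.0222), as much with ZT0 alone (-0.66) as with ZT20 alone (-0.60), and by -1.56 ± 0.14 in WT. It was 1 of 11 genes of glucose and lactate handling, and no other of them was called in KO. Abcc3, an efflux pump of the MRP family, was lower by -0.62 ± 0.09 (adjusted p = 0.00455) in KO and differed by 0.06 ± 0.10 in WT, but the difference between genotypes missed the threshold (adjusted p = 0.176).

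The matrix enzyme Loxl4 (-0.77 ± 0.14), the fatty acid elongase Elovl2 (-0.69 ± 0.14), the linker histone H1f5 (-0.62 ± 0.15), elastin, Eln (-0.62 ± 0.12), the matrix protein nephronectin, Npnt (-0.59 ± 0.10), and the tight junction protein Cldn1 (-0.58 ± 0.13) were also lower, with adjusted p from 0.00786 to 0.0499. Eln read 6.88, 6.72, 6.80 and 6.71 in the late day, against 7.30 and 7.81 at ZT20 and 7.52 and 6.95 at ZT0. It was highest on ZT20 pool 2 and ZT0 pool 1, the arrays on which proliferation and stromal genes were also highest. H1f5 was highest on ZT20 pool 2, at 7.35.

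Genes of fatty acid use had a list median of 0.24 log2 (0.11 in WT). Of 10, 6 were not called and, against 1.17% of all genes, 4 were higher in the late day. They were Angptl4, an inhibitor of lipoprotein lipase (0.63 ± 0.14, adjusted p = 0.0412), the pantetheinase Vnn1 (0.50 ± 0.09, adjusted p = 0.0159), Cpt1a, which admits fatty acids to mitochondria (0.33 ± 0.07, adjusted p = 0.0387), and the carnitine carrier Slc25a20 (0.33 ± 0.08, adjusted p = 0.0431). Cpt1a read 11.17, 11.32, 10.90 and 11.22 in the late day, against 10.72, 10.83, 10.86 and 10.87 in the late night, so the groups did not overlap but nearly touched.

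Transport genes changed one by one. The sodium-hydrogen exchanger Slc9a2 was higher in the late day (0.40 ± 0.09, adjusted p = 0.0363), as 1 of 12 sodium transport genes. The urea transporter Slc14a2, read at 7.51, 7.47, 7.55 and 7.56 in the late day and 8.07, 8.11, 7.84 and 7.76 in the late night, was lower by -0.42 ± 0.07 (adjusted p = 0.0085), close to the -0.41 ± 0.08 of WT, as 1 of 9 water and urea genes. The anion exchanger Slc4a1 of acid-secreting intercalated cells was lower by -0.33 ± 0.06 (adjusted p = 0.0163), as 1 of 9 intercalated cell markers. None of 5 renin-angiotensin genes passed (limma, 2 at an unadjusted p under 0.05).

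Chaperones of the endoplasmic reticulum split. Of 13, 1 rose, 3 fell and 9 did not pass in KO, with a median of -0.10 log2, and in WT 1 rose and 10 fell, with a median of -0.57. Herpud1, which acts in the removal of misfolded proteins, was the one that rose in both, by 0.58 ± 0.08 in KO (adjusted p = 0.00337) and 0.45 ± 0.09 in WT (adjusted p = 0.0233). In KO it read 11.44, 11.74, 11.57 and 11.71 in the late day, against 10.94 and 10.99 at ZT20 and 11.02 and 11.19 at ZT0, with no overlap. The 3 that fell in KO were Pdia6 (-0.39 ± 0.07), Calr (-0.36 ± 0.06) and Hsp90b1 (-0.29 ± 0.06).

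Heat shock genes did not pass in 11 of 11 cases (limma, 4 at an unadjusted p under 0.05), nor did 8 immediate early genes (1), 12 cholesterol synthesis genes (2), 11 immune cell markers (5), 9 endothelial markers (1), 7 distal convoluted tubule markers (4), 8 principal cell markers (1), 10 genes of amino acid and polyamine metabolism (2), or 5 podocyte, 6 thick ascending limb and 9 tubular injury genes (0 in each of these 3). Over all 13967 genes, 1600 had an unadjusted p under 0.05. The heat shock, immune and distal convoluted tubule counts lay far above that share, so the lack of calls there does not show a lack of change.

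**Figure D4:**
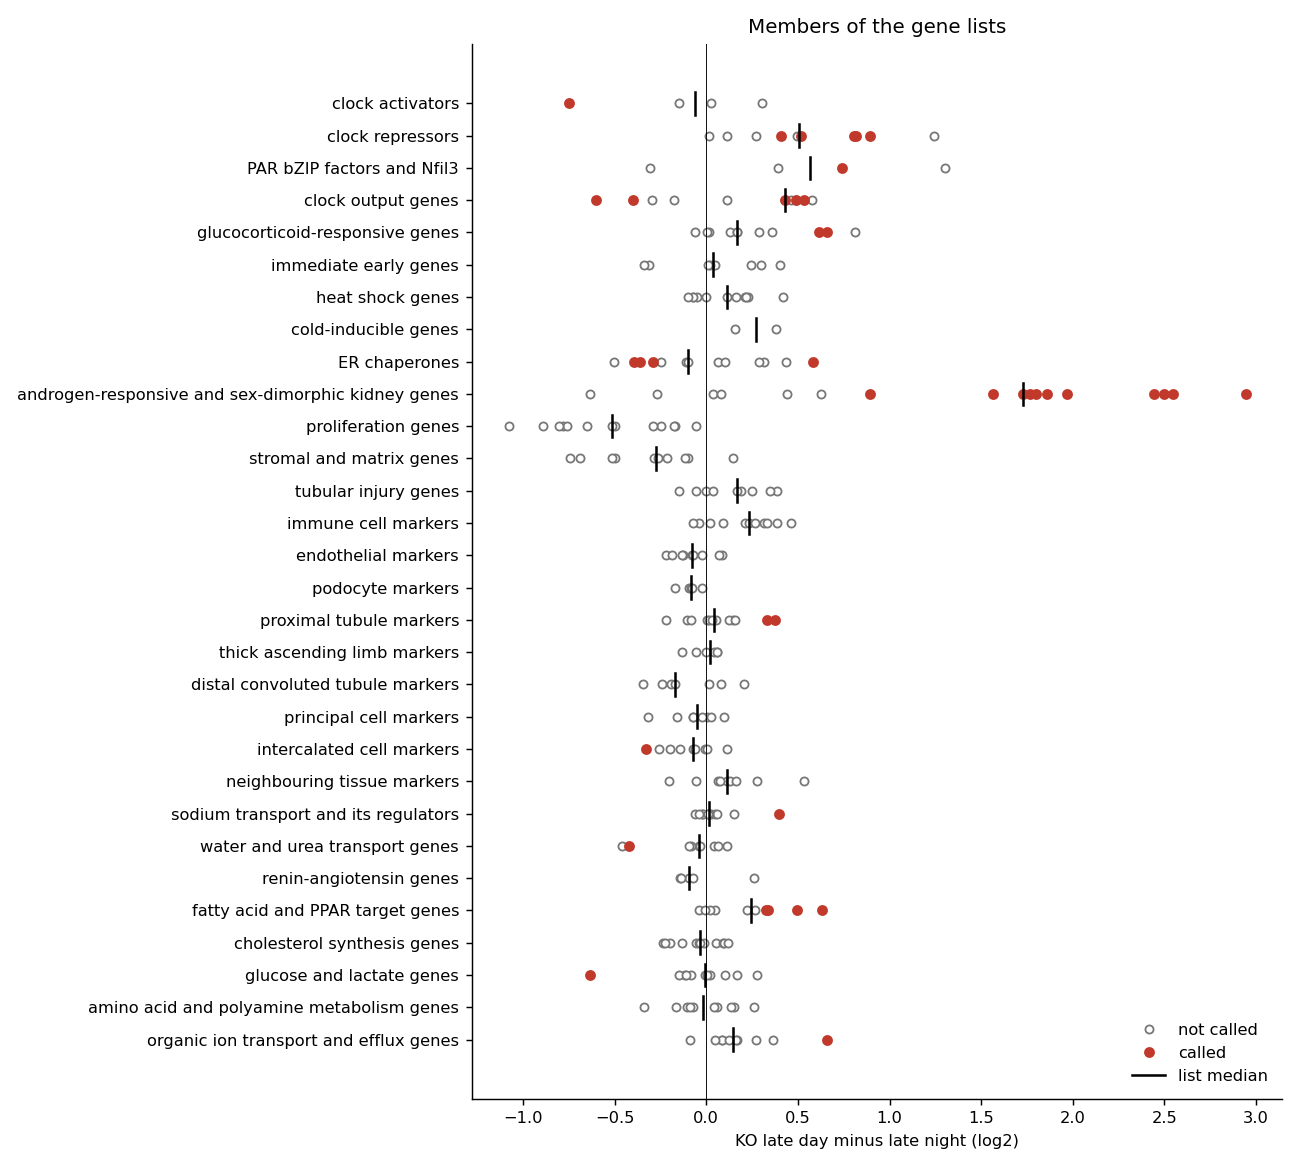
KO late day minus late night difference in log2 for each measured member of the 30 gene lists, with called genes filled in red, others open and a black bar at the list median. The 11 called androgen-responsive and sex-dimorphic genes reach from 0.89 to 2.94, while all 13 proliferation genes lie below 0 with none called.

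WT kidneys served as the second genotype for the same hours. There 219 genes were called (1.57%), 133 higher and 86 lower in the late day, and 1878 had an unadjusted p under 0.05. Of the 214 KO genes, 206 (96.3%) had the same sign in WT, against 63% of all genes, and 52 were also called there with that sign, which is 24.3% of the KO calls and 23.7% of the WT calls. Over the 163 genes higher in KO the median was 0.50 in KO and 0.29 in WT, and over the 51 lower genes it was -0.43 in KO and -0.36 in WT. These genes were chosen by their size in KO, so the larger KO value is no finding.

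The difference between genotypes was itself called for 9 genes (0.0644%), all with a more positive late day minus late night difference in KO, and 739 had an unadjusted p under 0.05. All but Nat8f5 were called lower in the late day in WT. Ypel2 differed by -0.18 in KO and -1.18 in WT, a gap of 1.0 ± 0.16. A further 3 were chaperones or their partners in the endoplasmic reticulum: Hspa5 had 0.06 ± 0.07 in KO and -0.66 ± 0.07 in WT (adjusted p of the gap = 0.0153), Creld2 had 0.31 ± 0.09 and -0.57 ± 0.10 (0.0229), and Hyou1 had -0.10 ± 0.06 and -0.74 ± 0.07 (0.0219). Nt5e, the enzyme that makes adenosine from AMP, had -0.12 ± 0.07 in KO and -0.83 ± 0.08 in WT, and G6pc, which releases glucose in gluconeogenesis, 0.10 ± 0.06 in KO and -0.47 ± 0.07 in WT.

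Hspa5 shows the layout. In KO it read 11.39 and 11.37 at ZT8 and 11.88 and 11.67 at ZT12, against 11.58 and 11.65 at ZT20 and 11.49 and 11.35 at ZT0, which overlap throughout. In WT it read 11.08 at ZT8 and 11.34 and 11.37 at ZT12, against 12.12 and 12.10 at ZT20 and 11.75 and 11.53 at ZT0, with every night array above every day array.

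**Figure D5:**
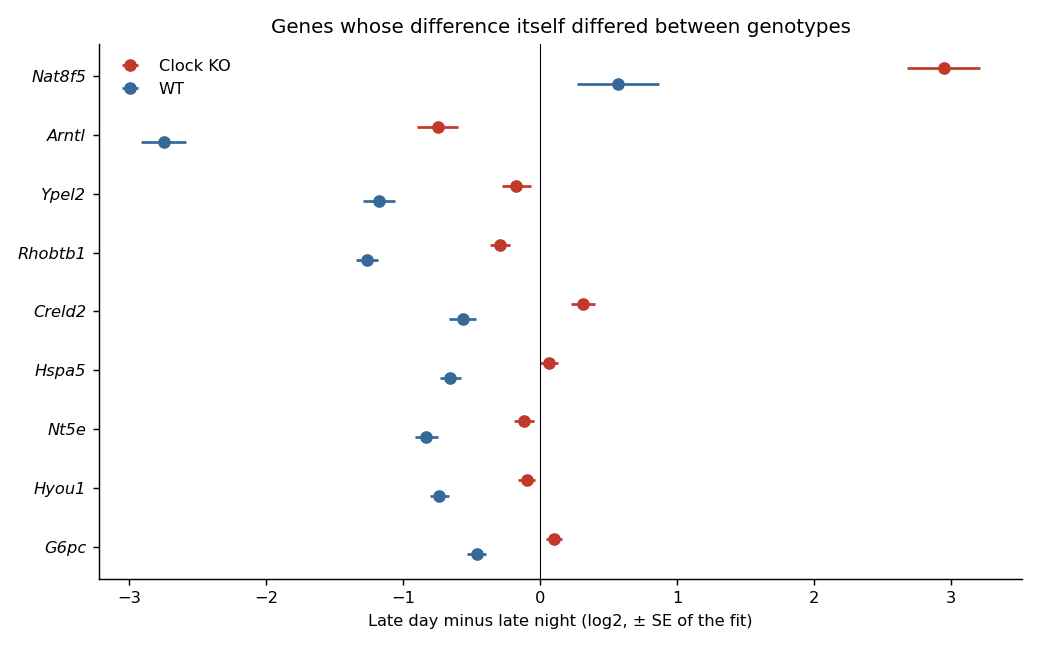
Late day minus late night difference in log2, with the standard error of the fit, in KO (red) and WT (blue) for the 9 genes whose difference between genotypes was called. In 8 of the 9 the WT point lies below 0 and the KO point nearer to 0 or above it, and Nat8f5 is larger in KO.

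The promoter elements shown above were counted over the genes that have a promoter entry, which were 128 of the 163 higher genes, 39 of the 51 lower genes and 11078 of all genes. An E-box was held by 12.5% of the higher, 12.8% of the lower and 11.3% of all promoters. A D-box was held by 6 of the 128 higher promoters (4.69%), 0 of the 39 lower and 0.867% of all. A RORE core was held by 19.5% of the higher, 23.1% of the lower and 15.6% of all. The heat shock element was held by 1.56% of the higher, 0 of the lower and 0.56% of all. These are matches of letters in a window of fixed length, given as a description and not as binding sites.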

How the data were processed

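The deposited values are on a log2 scale, 1 per probe set and array, and the submitters' processing notes name RMA as the authors' method. RMA removes background, forces 1 distribution on all arrays and compresses dim probe sets. Its version and the genome build were not given in any source used here. Of 35556 probe sets, 21789 have 1 gene symbol, 1621 have several and 12146 are not listed in the platform annotation, and 21698 of the first matched RefSeq genes of GRCm38.p6. Probe sets under the 30th percentile of the mean were left out and the brightest kept per gene, which left 13967. The 12 group means of all 22 arrays were fitted with limma 3.58.1 in R 4.3.3 (10 residual degrees of freedom), and each time within a window had equal weight. Where a group holds 1 pool, the fit takes its spread from the other groups. A call needed an adjusted p (Benjamini-Hochberg, over all genes) under 0.05, and ± gives the fit's standard error unless SD is written. The fit was tested on simulated data. The windows, the 30 gene lists (279 of 316 members measured) and the tests were chosen with earlier results of these data known. Genes were named as the 12 largest per direction whose arrays did not overlap, up to 8 called with both night times, up to 6 each for ZT20 minus ZT0 and for the difference of genotypes, every clock and cold-inducible list member, and the 4 largest of each other list. List members outside that rule, Kap, Cyp7b1, Pzp, Ugt2b37, Cyp4a12b, Ces1g, Cyp4b1, Cyp4a14, Calr and Hsp90b1 among them, and Hyou1, Nt5e, G6pc and the Y-linked genes were named after their values were seen. An array has no read depth, and the number of arrays limits the precision.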

Additional observations from a re-analysis of the deposited data

Results flagged for a closer look

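Among the named genes, 124 groups of 4 KO arrays were screened for an array far from the other 3, and 4 groups (3.23%) held one, where chance marks about 1 in 20. All 4 lay in the late day. On ZT12 pool 1, Etnppl read 7.17 where the others read 7.57 to 7.62, Angptl4 read 7.38 against 7.86 to 7.89, and Dtx4 read 8.21 against 7.76 to 7.80. On ZT8 pool 1, Abcc3 read 6.43, and the other 3 arrays read 6.17. None of the 4 was in a late night group.

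The late day minus late night difference was called as different between KO and WT for 9 genes. The KO minus WT gaps were 2.37 log2 for Nat8f5, 2.00 for Arntl, 1.0 for Ypel2, 0.97 for Rhobtb1, 0.88 for Creld2, 0.72 for Hspa5, 0.71 for Nt5e, 0.64 for Hyou1 and 0.56 for G6pc.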

How the results depend on the processing

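The KO count of 214 was 9 with the 8 arrays alone, 338 with a 24 h cosine, 14 within pool 1, 2 within pool 2, 3 without the ZT20 pools, 40 without ZT8, 47 without ZT12, 130 with no filter, 369 with array weights and 99 at 0.5 log2 or more. The count of 9 for the difference of genotypes was 4 with window means, 4 with a cosine, 3 within pool 1, 0 in limma within pool 2 (589 at an unadjusted p under 0.05), 31 without KO ZT0, 0 without KO ZT12 (461 at an unadjusted p under 0.05) and 14 with a filter at the 50th percentile. ZT0 alone gave 1 with no filter, 7 at the 50th percentile, 1 with every probe set, 7 with quantile normalization repeated, 15 with a robust spread and 11 with weights. ZT20 minus ZT0 gave 7 at the 50th percentile and 9 with weights. WT gave 329 at the 50th percentile and 100 at 0.5 log2 or more, and its split of 133 higher to 86 lower was 75 to 73 with array medians subtracted and 124 to 121 with quantile normalization repeated. ZT20 alone, whose alternatives were added after seeing the data, gave 459 with weights and 166 at 0.5 log2 or more. Subtracting medians split the KO calls 170 to 29. Leaving out 1 array gave 30 to 300 in KO, 2 to 14 for the difference of genotypes (2 without WT ZT8), 0 to 6 for ZT0 alone, 0 to 26 for ZT20 minus ZT0 (26 without KO ZT0 pool 1), 89 to 271 in WT and 40 to 348 for ZT20 alone. The first 3 of these counts after KO moved by over 1.5 times in 13, 14 and 16 of 22 fits. WT fell to 89 without ZT20 pool 1, 108 and 121 without ZT0 pool 1 and pool 2 and 132 without ZT12 pool 1. ZT20 alone fell to 40 and 148 without ZT20 pool 2 and pool 1, 122 without ZT8 pool 2, 124 without ZT12 pool 2 and 198 without ZT8 pool 1. Of 49 named called genes, all kept their sign in every alternative, 43 were called without the ZT0 pools, 2 without ZT20, and 14 in every fit that left out 1 array. They were chosen as called and the alternatives reuse the same arrays, so the kept signs were close to built in. Calls of Slc13a3, H1f5, Slc25a20, Angptl4, Bhlhe40 and Per1 were lost in 16, 15, 14, 13, 12 and 10 of those 22 fits, in that order, and those of Cpt1a and Slc9a2 in 9 and 8. Pool numbers were not taken to pair the samples, since not every pair of groups correlated at over 0.1 (r of 0.0281 to 0.357 and 5 of 6 over 0.1 among the 4 KO groups compared, -0.411 to 0.547 and 25 of 45 over all groups). With them as a block, the calls were 289 in KO, 8, 2, 4 and 405 in the order difference of genotypes, ZT0 alone, ZT20 minus ZT0 and ZT20 alone, and 474 in WT. The causes were not tested.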

Other observations

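The KO arrays of ZT4 and ZT16 belong to neither window, though those of ZT4 add to the spread in the fit and the single ZT16 pool does not. Relative to the KO late day mean, the 163 genes higher in the late day had medians of -0.16 and -0.11 log2 on the ZT4 pools and -0.30 on the ZT16 pool, and the 51 lower genes had 0.18 and 0.20 at ZT4 and 0.34 at ZT16. Azgp1 read 9.31 and 8.68 at ZT4 and 7.96 at ZT16, and Slco1a1 read 8.97 and 9.29 at ZT4 and 8.96 at ZT16, all above both ZT20 pools. Nat8f5 was already near its night level at ZT4 (5.76 and 6.10) and ZT16 (5.72), so its KO late day values of 7.31 to 9.19 were the high ones among 11 arrays. Hspa5 was highest in KO at ZT16, at 12.16, and Creld2 likewise at 8.94, outside both windows.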
